A study of Mus musculus with 2 samples.

Results

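The 9 genes described here handle zinc and related metals in the intestine. They are the importers Slc39a4, Slc39a5, Slc39a8 and Slc39a14, the exporters Slc30a1, Slc30a2 and Slc30a10, and the metallothioneins Mt1 and Mt2. They were chosen by their function, with earlier results of these data already known. All probe sets whose gene name in the platform annotation is exactly one of these symbols were used. All 9 were found, with 16 probe sets among the 45101 of the array and 9 of 18194 named genes. The data are 1 Affymetrix Mouse Genome 430 2.0 array of small intestine and 1 of colon, each hybridised with total RNA of a biopsy from wild-type adult mice. Their purpose was a comparison with transcript measurements by other methods, and the sources used here do not give the number of animals behind each array. Every level is a log2 expression value of a probe set, a group of short probes for the same transcript, and levels of different probe sets are not set against each other. With 1 array per tissue no difference has a replicate check, and no p-value is given.

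Zinc carriers of the Slc39 family, also called ZIP proteins, bring zinc into the cytosol from outside the cell or from organelles, and carriers of the Slc30 family, also called ZnT proteins, move it out of the cytosol into vesicles or out of the cell. Metallothioneins are small, cysteine-rich proteins that bind zinc, copper and cadmium, and their genes are switched on by zinc through the metal-sensing transcription factor encoded by Mtf1. Dietary zinc is taken up mainly in the small intestine, where ZIP4 acts at the luminal face of the enterocyte. ZIP8, ZIP14 and ZnT10 also belong to manganese handling.

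A value of 5 was taken as the background level, and lower values were raised to it before a difference was formed. The threshold for calling a gene higher on an array was a difference of 3-fold, which is 1.58 on the log2 scale. By this rule Slc30a2 and Slc39a14 were higher in the small intestine and Slc39a8 was higher in the colon, whereas the other 6 members were not called. Thus 2 of 9 members were called toward the small intestine, where 3.46% of all named genes and 5.71% of those above background on either array were, and 1 of 9 toward the colon, where 3.33% and 5.49% were. All 9 members lay above background on at least 1 array, and 8 did so on both. Of all 18194 named genes, 11016 lay above background on at least 1 array and 9814 on both. The median floored difference of the members was -0.13, and that of all named genes was 0.

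**Figure D1:**
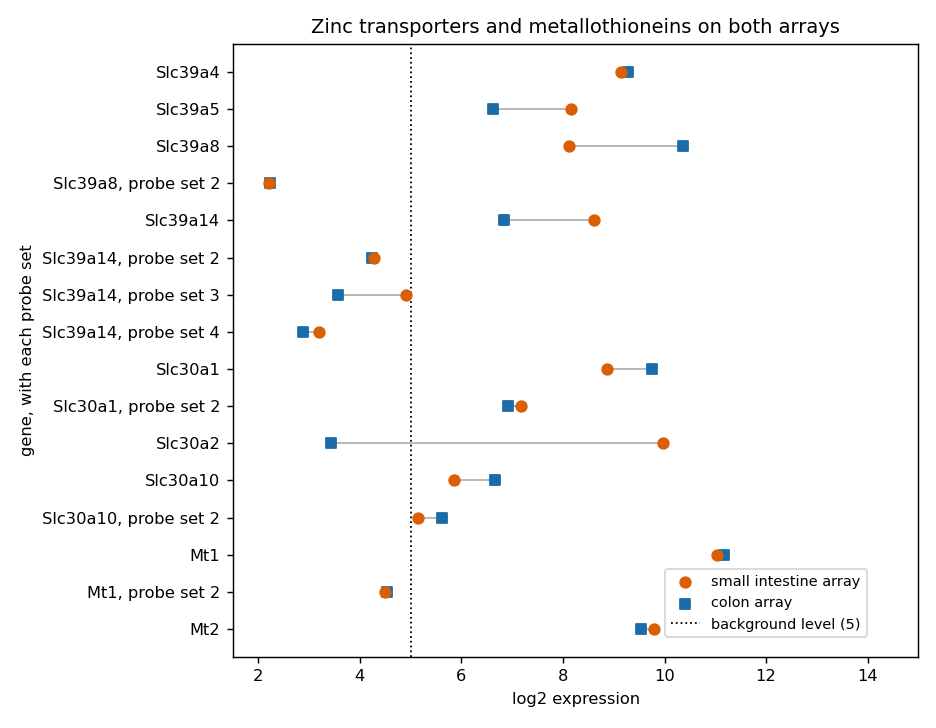
Log2 expression of each of the 16 probe sets of the 9 genes on the array of small intestine (circles) and that of colon (squares), with a dotted line at the background of 5. Slc30a2 lies at 9.97 on the small intestine array and left of the line, at 3.44, on the colon array, while the marks of Slc39a4, Mt1 and Mt2 nearly coincide.

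Among the exporters, Slc30a2 had the largest difference of all members. It encodes ZnT2, which loads zinc into secretory vesicles and is known from Paneth cell granules, from pancreatic acinar cells and from the milk-producing gland. Its single probe set had 9.97 on the small intestine array and 3.44 on the colon array. The colon value lay below background, so that Slc30a2 was higher by at least 31.3-fold in small intestine, a floored difference of 4.97. Only 62 of the 18194 named genes had a larger floored difference toward the small intestine. The size of this difference depends on the background level, being 5.97 at a level of 4, 3.97 at a level of 6 and 6.53 with values as deposited, and its direction was the same at each.

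Slc30a2 was set beside marker genes of the cell types that a biopsy could hold. All 6 Paneth cell markers were above background on the small intestine array, with levels of 12.45 to 16.27, and 5 of 6 were on the colon array, with levels of 4.97 to 14.36. Of these, 5 were called toward the small intestine, such as the matrix protease Mmp7 with 12.45 in small intestine, against 5.59 in colon. Lyz1, which encodes the Paneth cell lysozyme, had 16.27 against 14.07, and the angiogenin Ang4, not called, had 14.47 against 14.36. Markers of other cells were called toward the small intestine too, namely all 6 of small intestinal enterocytes and 5 of 6 of T cells. The median floored difference was 8.14 for the enterocyte markers, 5.97 for the Paneth cell markers and 3.34 for the T cell markers. Exocrine pancreas genes went the other way. Of 10 measured pancreas markers, 9 were at or below background in the small intestine and all 10 lay above it in the colon, with levels of 9.76 to 13.95. Slc30a2 was below background on the colon array. The part of Paneth cells, enterocytes, T cells or pancreatic tissue in the values of Slc30a2 was not tested. In tissue RNA, fewer cells of a type cannot be told apart from less RNA per cell.

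**Figure D2:**
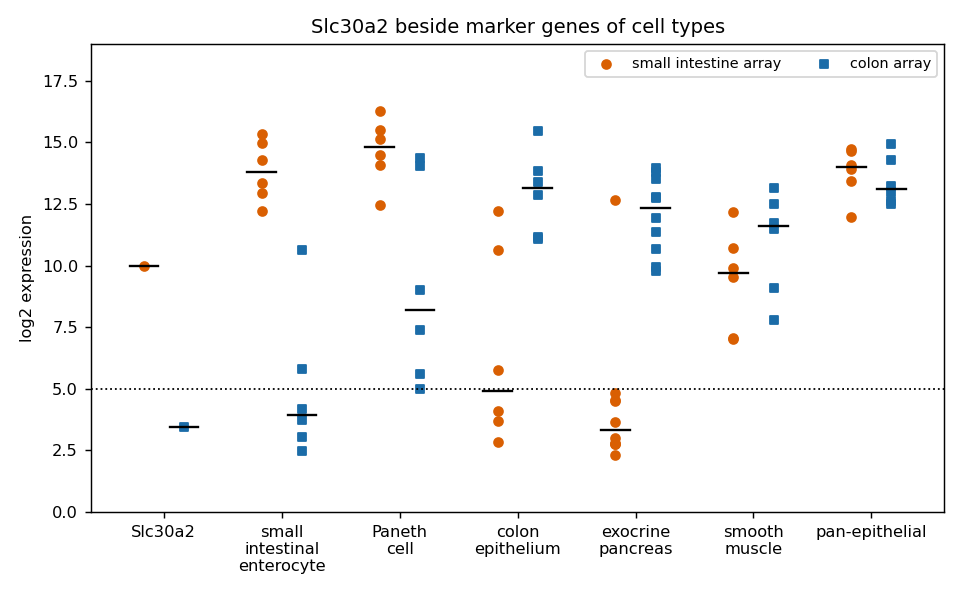
Log2 expression of Slc30a2 and of the marker genes of 6 cell types on the array of small intestine (circles) and that of colon (squares), 1 point per gene. Black bars are medians and the dotted line is the background level of 5. The median of the Paneth cell markers is 14.80 in small intestine, against 8.18 in colon, and that of the exocrine pancreas markers is 3.33 and 12.34.

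Slc30a1 encodes ZnT1, the exporter of the cell surface that passes zinc from the enterocyte toward the blood. Its brighter probe set had 8.86 in small intestine, against 9.76 in colon, a difference of -0.90 that is 1.86-fold. The second probe set had 7.16 in small intestine, against 6.92 in colon, a difference of 0.24. The 2 probe sets of Slc30a1 thus differed in direction, and neither reached 3-fold.

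Slc30a10 encodes ZnT10, an exporter known mainly for manganese. Its brighter probe set had 5.85 in small intestine, against 6.67 in colon, and the other had 5.15 against 5.62. Both differences, -0.82 and -0.47, were toward the colon and under 2-fold, at levels close to background.

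Among the importers, Slc39a8 was the only member called toward the colon. It encodes ZIP8, a carrier of zinc and manganese that also lets in cadmium. Its brighter probe set had 8.12 in small intestine, against 10.35 in colon, a difference of -2.23, or 4.71-fold. There were 291 named genes with a larger difference toward the colon. The other probe set of Slc39a8 was at 2.21 in small intestine, against 2.23 in colon, below background on both arrays, so the call rests on a single probe set.

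Slc39a14 encodes ZIP14, which carries zinc, non-transferrin iron and manganese and takes up manganese from the blood side of the enterocyte. Its brightest probe set had 8.61 in small intestine, against 6.84 in colon, a difference of 1.77 or 3.42-fold. The other 3 probe sets stayed below background on both arrays. They had 4.29, 4.91 and 3.20 in the small intestine and 4.23, 3.56 and 2.88 in the colon. The call thus rested on the brightest probe set alone. With the median over the probe sets of a gene, the floored difference of Slc39a14 was 0 and that of Slc39a8 was -1.12, so that neither was called.

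Slc39a5 encodes ZIP5, an importer of the blood-facing membrane of enterocytes that pancreatic acinar cells carry as well. It had 8.16 in small intestine, against 6.63 in colon, a difference of 1.53 or 2.89-fold, just under the rule. It passed 3-fold after quantile normalization, with 1.60, and after centring on hybridisation spike-ins, with 1.78. The single probe set of Slc39a5 is of a kind marked by the manufacturer as shared by several transcripts. The pancreas markers given above were high on the colon array, and their part in the colon value of Slc39a5 was not tested.

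Slc39a4 encodes ZIP4, the main zinc importer of the luminal membrane, whose loss in humans causes the zinc deficiency disease acrodermatitis enteropathica. It had 9.14 in small intestine, against 9.28 in colon, a difference of 1.10-fold. The difference of -0.14 was smaller than that of most genes, since 84.5% of the named genes above background on either array differed by as much or more. Its sign is not settled, because centring on hybridisation spike-ins gave 0.11.

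The metallothioneins Mt1 and Mt2 were bright on both arrays and differed little between them. The brighter probe set of Mt1 had 11.04 in small intestine, against 11.17 in colon (1.09-fold), and the other, with 4.50 and 4.53, lay below background. The single probe set of Mt2 had 9.79 in small intestine, against 9.54 in colon (1.19-fold). The bright probe set of Mt1 is of a kind marked by the manufacturer as shared by several transcripts, so its value may not be of Mt1 alone. The difference of Mt1, -0.13, was 0.12 after centring on hybridisation spike-ins, so no direction can be given for it.

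Mt1 and Mt2 lie close together on mouse chromosome 8, with RefSeq promoter windows of the same strand whose starts are 6471 bases apart. The windows, of 250 bases before and 50 after the annotated transcript start, were searched for the core of the metal response element, to which the Mtf1 product binds, because it is the known link between zinc and these genes. The core was searched as TGCACNC and TGCGCNC on both strands. The windows of both genes are given in full, since zinc is known to drive the promoters of this gene pair. They are written in the direction of transcription, from GRCm38.p6, plus strand, with the matches in capitals. They lie at chr8:94178839-94179138 for Mt1 and chr8:94172368-94172667 for Mt2.
Mt1: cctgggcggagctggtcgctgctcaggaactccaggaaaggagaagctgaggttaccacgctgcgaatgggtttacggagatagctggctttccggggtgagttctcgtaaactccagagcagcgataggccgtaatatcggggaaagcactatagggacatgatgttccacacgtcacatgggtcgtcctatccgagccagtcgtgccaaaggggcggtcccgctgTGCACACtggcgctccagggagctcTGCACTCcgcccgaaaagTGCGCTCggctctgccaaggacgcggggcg
Mt2: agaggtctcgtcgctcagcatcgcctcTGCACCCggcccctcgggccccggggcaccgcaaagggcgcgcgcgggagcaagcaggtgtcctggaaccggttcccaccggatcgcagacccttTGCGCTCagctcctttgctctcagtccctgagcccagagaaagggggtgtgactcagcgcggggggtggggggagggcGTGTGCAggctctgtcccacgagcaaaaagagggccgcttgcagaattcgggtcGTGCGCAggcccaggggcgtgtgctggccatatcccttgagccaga

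The window of Mt1 held 3 matches and that of Mt2 held 4. In Mt1 only the first match lies before the annotated transcript start, and the others lie after it. In Mt2 only the last match lies after the annotated start. These are counts within the windows, and whether the windows span the whole promoters was not tested. Of all 32851 windows of 300 bases in the table, 25.7% held at least 1 match, 7.11% at least 2, 1.97% at least 3 and 0.517% at least 4. Windows were found for 7 of the 9 members, all but Slc39a4 and Slc39a14, which were not searched. Of the 9 windows of these 7 members, 7 held a match, as did 7 of 18 windows of 15 other zinc transporter genes. Slc30a10 held 3, of which 2 overlap, Slc30a1 held 2, and a single match stood in 1 of the 2 windows each of Slc39a5 and Slc39a8. Slc30a2, the member with the largest difference, held 2 matches on the minus strand, in the stretch chr4:134343246-134343275 of GRCm38.p6, plus strand.
Slc30a2: cgtcccGCGCGCAacttcgaGGGCGCAccg
A match is a run of letters and not a measured binding site. The exporter gene Slc30a4, not a member, held 3 matches as well, and its difference was -0.36. This gene was named after its values were seen, and any link between matches and differences was not tested.

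Mtf1, the gene of the zinc sensor itself, had 8.17 in small intestine, against 6.88 in colon at its brightest probe set, a difference of 1.28 or 2.43-fold that did not reach the rule. Of its 5 probe sets, 3 were above background on both arrays, with differences of 1.28, 1.26 and 0.67. Mt3, known as the metallothionein of the brain, had 5.95 in small intestine, against 6.63 in colon (-0.68). Mt4, known from stratified epithelia, was below background on both arrays, with 4.49 and 3.29.

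None of the other 17 carriers of both families was called, a count near the shares of 3.46% and 3.33% of all named genes called toward the small intestine and the colon. Of 10 further Slc39a genes, 7 were above background on both arrays, and their floored differences ran from -0.89 to 0.73, with a median of 0. The largest were those of Slc39a10, with 7.46 in small intestine, against 8.36 in colon, of Slc39a3, with 6.77 and 6.04, and of Slc39a11, with 9.31 and 9.95. The second probe sets of Slc39a10 and Slc39a3 did not share these differences, with floored values of 0 and 0.01. Of 7 further Slc30a genes, 6 were above background on both arrays, and differences ran from -0.65 for Slc30a7 to 2.01-fold for Slc30a5, with a median of -0.13. Slc30a5 and Slc30a7 encode carriers that supply zinc to enzymes of the secretory pathway such as alkaline phosphatase. Slc30a5 had 11.06 in small intestine, against 10.06 in colon, a difference toward the small intestine, and Slc30a7 had 8.27 against 8.92, a difference of -0.65 that its second probe set shared at -0.69. Slc30a6, the partner of Slc30a5 in a zinc-carrying complex, had 8.34 against 8.70. Slc30a8, the zinc carrier of insulin granules, was at 2.47 in small intestine, against 2.46 in colon. Across all 24 carriers, 19 differed by less than 2-fold, 4 of which were at or below background on both arrays.

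**Figure D3:**
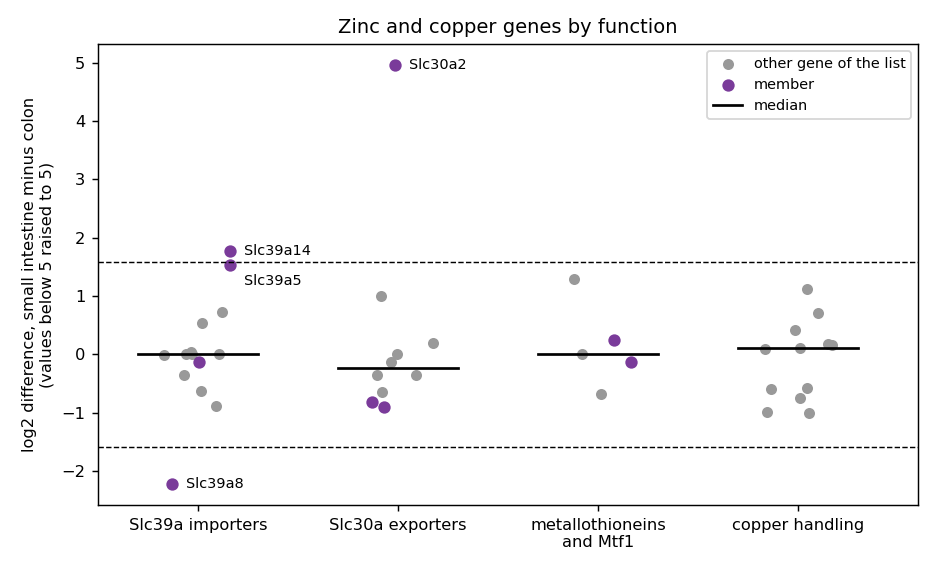
Floored log2 difference, small intestine minus colon, for the Slc39a importers, the Slc30a exporters, the metallothioneins with Mtf1, and copper genes, 1 point per gene. Members are purple, other genes grey, bars are medians and dashed lines mark 3-fold. Slc30a2 at 4.97, Slc39a14 at 1.77 and Slc39a8 at -2.23 lie outside the dashed lines.

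Copper shares its binding to metallothioneins with zinc, and none of 12 copper handling genes was called. That count is near the shares of 3.46% and 3.33% of all named genes called toward the small intestine and the colon. The median floored difference of the copper genes was 0.10. Atp7b, the copper pump mutated in Wilson disease in humans, had 6.13 in small intestine, against 2.74 in colon at 1 of its 3 probe sets (at least 2.18-fold), and its other probe sets were below background on both arrays. The metalloreductase genes Steap4, with 5.15 in small intestine, against 6.16 in colon, and Steap2, with 5.55 and 6.54, had the largest differences toward the colon, at -1.01 and -0.98. The copper importer Slc31a1 had 10.27 against 10.12, and the enterocyte copper exporter Atp7a had 9.34 against 9.93 at its brighter probe set, whereas the other went the opposite way, with 7.06 against 6.76.

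**Figure D4:**
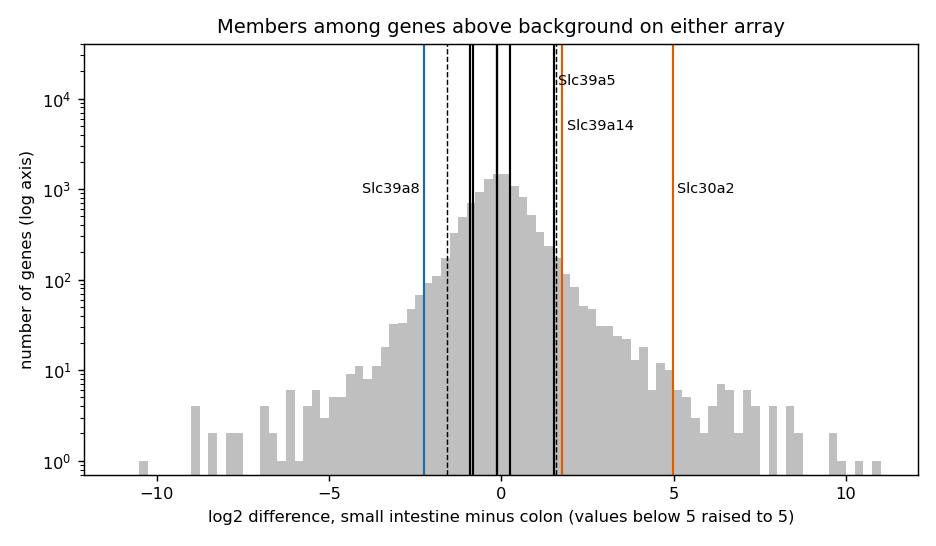
Number of genes (log axis) by floored log2 difference, small intestine minus colon, for the 11016 genes above background on either array. Vertical lines are the 9 members, orange where called toward the small intestine, blue toward the colon and black where not called, and dashed lines mark 3-fold. Slc30a2 stands in the right tail and the lines of 5 members lie within 1 unit of 0.

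The error of these differences can be judged only from within the arrays. Hybridisation spike-ins, which are labelled RNAs added to the sample before hybridisation, differed (small intestine minus colon) by a mean of -0.25 with an SD of 0.67 over 18 probe sets and a range from -1.52 to 0.33. Poly-A spike-ins, added before labelling, differed by -0.64 with an SD of 1.06 over 22 probe sets, and ranged from -2.73 to 0.605. Probe sets of the same gene differed with a pooled SD of 0.54 over 3535 genes with more than 1 probe set above background on both arrays. The difference of Slc30a2 was larger than any of these spreads. Those of Slc39a14, at 1.77, and Slc39a5, at 1.53, exceeded the pooled SD and lay within the range of poly-A spike-ins in size, as did that of Slc39a8. The poly-A spike-ins of such size lay toward the colon, which is the direction of Slc39a8 but not of Slc39a14 and Slc39a5. Spread between animals is not contained in any of these values.

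The labels of the arrays were set beside markers of their tissues. The marker lists were chosen with earlier results of these data known, so the calls are not an independent check of the labels. All 6 enterocyte markers of the small intestine were called toward that array and all 6 colon markers toward the colon, and pan-epithelial markers were at 11.97 or more on both arrays, with 1 of 6 called, Vil1 toward the small intestine. Smooth muscle markers were called toward the colon in 4 of 6 cases, T cell markers toward the small intestine in 5 of 6, and B and plasma cell markers toward it in 3 of 6. Of 5 measured hepatocyte markers, the defining genes Alb, Fgb and Ahsg were below background on both arrays, Cps1 was called toward the small intestine and Ttr toward the colon. The part of these cell types in the values of the zinc genes was not tested.

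**Figure D5:**
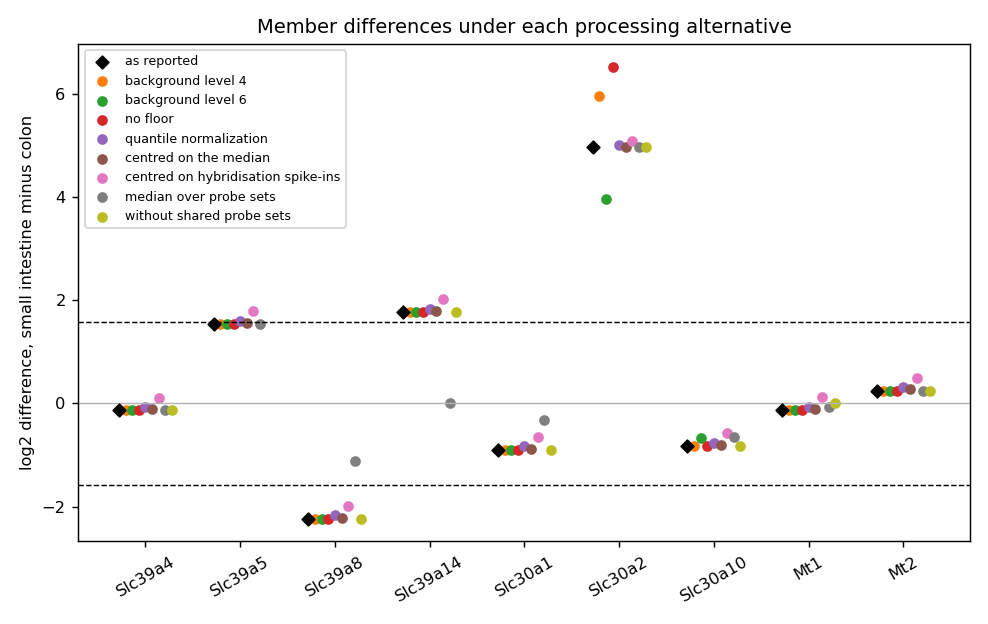
Log2 difference between small intestine and colon of each of the 9 genes as reported (black diamonds) and under each processing alternative (coloured circles), with dashed lines at 3-fold. Slc30a2 stays above the upper line in all of them, between 3.97 and 6.53, whereas Slc39a14 and Slc39a8 cross inside the lines with the median over probe sets, at 0 and -1.12.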

How the data were processed

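The authors isolated total RNA with a Qiagen RNeasy kit, labelled it with biotin and hybridised it to Affymetrix Mouse Genome 430 2.0 arrays. The deposited values are normalized log2 expression values per probe set. The labels name GCRMA, and the study's methods name RMA and point to another series for its arrays, and no version or genome build is given in the sources used here. GCRMA can widen a fold against a dim value.

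Values were used as deposited. Probe sets were named by the platform annotation, those with several genes were not used, and all 16 probe sets of the members matched RefSeq by Entrez identifier with the same symbol. The probe set that was brightest on average over both arrays stood for its gene. Differences are small intestine minus colon, after raising values below 5 to 5, and were called at 3-fold. A fold against a value below 5 is a lower bound. No test was possible with 1 array per tissue, and precision is limited by the number of arrays. The members, the gene lists and the rule for calling were chosen with earlier results of these data known. All members were named, and of each zinc or copper list the 3 genes with the largest differences. Besides these, Slc30a4, Slc30a8, Slc31a1 and Atp7a were named after their values were seen. Promoter sequences are from RefSeq (GRCm38.p6). The procedure was tested on simulated data, in which only genes well above background were changed, each by more than the 3-fold rule. The simulated noise was smaller than the spread of the poly-A spike-ins. That test does not cover genes near background or differences close to 3-fold. Analyses used Python 3.11.15, numpy 2.4.6, pandas 2.3.3 and matplotlib 3.10.9. Alternatives were other background levels, folds, normalizations and choices of probe set.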

Additional observations from a re-analysis of the deposited data

How the results depend on the processing

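No member called at 3-fold took the opposite sign under any alternative run, but Slc39a14 had a difference of 0 with the median over probe sets. With a fold of 2 in place of 3, 4 of the 24 zinc carriers were higher in the small intestine (Slc30a2, Slc39a14, Slc39a5 and Slc30a5), so that 1 of the 17 carriers outside the members was called, and over all genes 1265 were called toward the small intestine and 1481 toward the colon, in place of 629 and 605. With a fold of 5, 1 member (Slc30a2) was called toward the small intestine and 0 toward the colon, which are also the counts over the 24 carriers, and 309 and 260 genes were called in all. The median over probe sets gave the same counts, 1 and 0, for members and carriers, with 447 and 395 genes in all. Of 71 alternative values of member differences, 65 moved by less than the pooled SD between probe sets, and the other 6 were those of Slc30a2 at other background levels and of Slc39a8, Slc39a14 and Slc30a1 (-0.33) with the median over probe sets. Centring on hybridisation spike-ins moved the median difference of all genes to 0.26, against 0.01 as deposited, and called 837 genes toward the small intestine and 446 toward the colon. Without shared probe sets Slc39a5 had no value and Mt1 had 0. Each tissue has 1 array, values near the background level have no reliable order, and spread between animals is unknown.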
